A study of Homo sapiens with 4 samples.

Results

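The 8 genes described here encode the enzymes that build the sugar backbone of chondroitin: CSGALNACT1 and CSGALNACT2, which start a chain, CHSY1 and CHSY3, which lengthen it, CHPF and CHPF2, which take part in lengthening, and DSE and DSEL, which epimerise it. They were chosen by gene symbol, not by their values, as all probe sets whose platform annotation gives 1 symbol from that list, which gave 17 probe sets of 54675 and 8 genes of 19775. The study used A549 cells, a human lung adenocarcinoma line, and NCI-H358 cells, a human bronchioloalveolar carcinoma line. Both lines were stably transduced and kept under antibiotic selection. The groups were NCI-H358 with the CHST11 vector, NCI-H358 with an empty vector, A549 with the CHST11 vector and A549 with an empty vector, each on 1 Affymetrix array. The question of the design was what forced CHST11 expression does to gene expression in each line. Because a group held 1 array, no value within a line had a replicate check, and precision was limited by this small number of arrays. The labels give neither the promoter of the vector nor whether a transduced culture was a pool or a clone.

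Chondroitin is made in the Golgi on a short linker of sugars attached to a core protein. Addition of a first N-acetylgalactosamine by a CSGALNACT enzyme commits the linker to chondroitin instead of heparan sulfate. Chondroitin synthases then add glucuronic acid and N-acetylgalactosamine in turn, epimerases turn part of the glucuronic acid into iduronic acid to give dermatan, and sulfotransferases such as CHST11 decorate the chain. CHST11 places sulfate on the 4 position of N-acetylgalactosamine, so the 8 genes make and remodel its substrate.

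The deposited signals were MAS5 intensities on a linear scale. Signals were raised to a floor of 16.14, the 50th percentile of all values, before log2 was taken. A gene was called measured in a line when at least 1 of its 2 arrays reached 27, the 60th percentile. The CHST11 probe set 219634_at had signals of 1058 with the CHST11 vector and 220.1 with the empty vector in NCI-H358, and of 343.5 and 129 in A549, while the other CHST11 probe sets had log2 ratios between -0.158 and 0.14. All 5 epithelial markers (EPCAM, KRT8, KRT18, KRT19 and CDH1) were over the filter on all 4 arrays, with summed signals of 18250 to 19310 in NCI-H358 and 19250 to 19500 in A549. Of 4 leukocyte markers, 3 were over the filter on at least 1 array and 0 on all of them (sums of 122.2 to 123.9 in NCI-H358 and 68.76 to 83.35 in A549). CORO1A was over it on both NCI-H358 arrays (83.59 and 83.49, against 14.62 and 13.25 in A549), and PTPRC, the marker that defines leukocytes, was below the floor on all 4. Their part in the line differences was not tested. Of 5 fibroblast and 3 endothelial markers, 1 each was over the filter on all arrays. CDKN2A, a cell cycle inhibitor gene known to be deleted in A549, had signals of 804.3 and 668.4 in NCI-H358 and of 23.95 and 18.42 in A549. Its neighbour MTAP was below the floor in A549 on 216685_s_at and 231984_at, both over the filter in NCI-H358, but its probe set 211363_s_at was higher in A549 (53.45 and 57.57 in NCI-H358, 132 and 112.9 in A549). Across probe sets, the r of log2 signals was 0.996 between the NCI-H358 arrays, 0.9961 between the A549 arrays and 0.9378 to 0.9389 between lines.

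Both enzymes that start chondroitin chains were much lower in NCI-H358 than in A549, and both had somewhat higher signals with the CHST11 vector. CSGALNACT1, known for chain initiation in cartilage, had signals of 34.87 with the CHST11 vector and 28.67 with the empty vector in NCI-H358, and of 1525 and 1147 in A549. The NCI-H358 signals lay just over the filter and the A549 signals far above it, with no overlap between the lines. The line difference was 41.8-fold (log2 -5.39, 95% interval -5.63 to -5.14, limma adjusted p = 2.521e-05), the 8th lowest of 10565 genes measured in both lines. Its other probe set, 1569387_at, stayed below the floor on all 4 arrays (7.376 to 10.76), so the difference rested on 1 probe set, and with the median of both probe sets it was log2 -2.69. In these bulk RNA samples, fewer cells with a transcript and less transcript per cell cannot be told apart. With the CHST11 vector the log2 ratio was 0.28 in NCI-H358 and 0.41 in A549, higher in both lines.

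CSGALNACT2, the second initiating enzyme, had signals of 80.11 with the CHST11 vector and 65.72 with the empty vector in NCI-H358, and of 235.4 and 198.7 in A549. It was 2.98-fold lower in NCI-H358 (log2 -1.58, 95% interval -1.81 to -1.34, limma adjusted p = 0.0002394). A second measured probe set, 222235_s_at, had 70.95 and 62.56 in NCI-H358 and 227.7 and 213.4 in A549, a 3.31-fold difference in the same direction. The endings of both probe set names mark probes that can match more than 1 transcript. Their vector ratios were log2 0.29 and 0.18 in NCI-H358 and 0.24 and 0.09 in A549, so all 4 ratios were above 0, but the probe sets differed in size. The third probe set, 239077_at, was below the floor throughout.

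**Figure D1:**
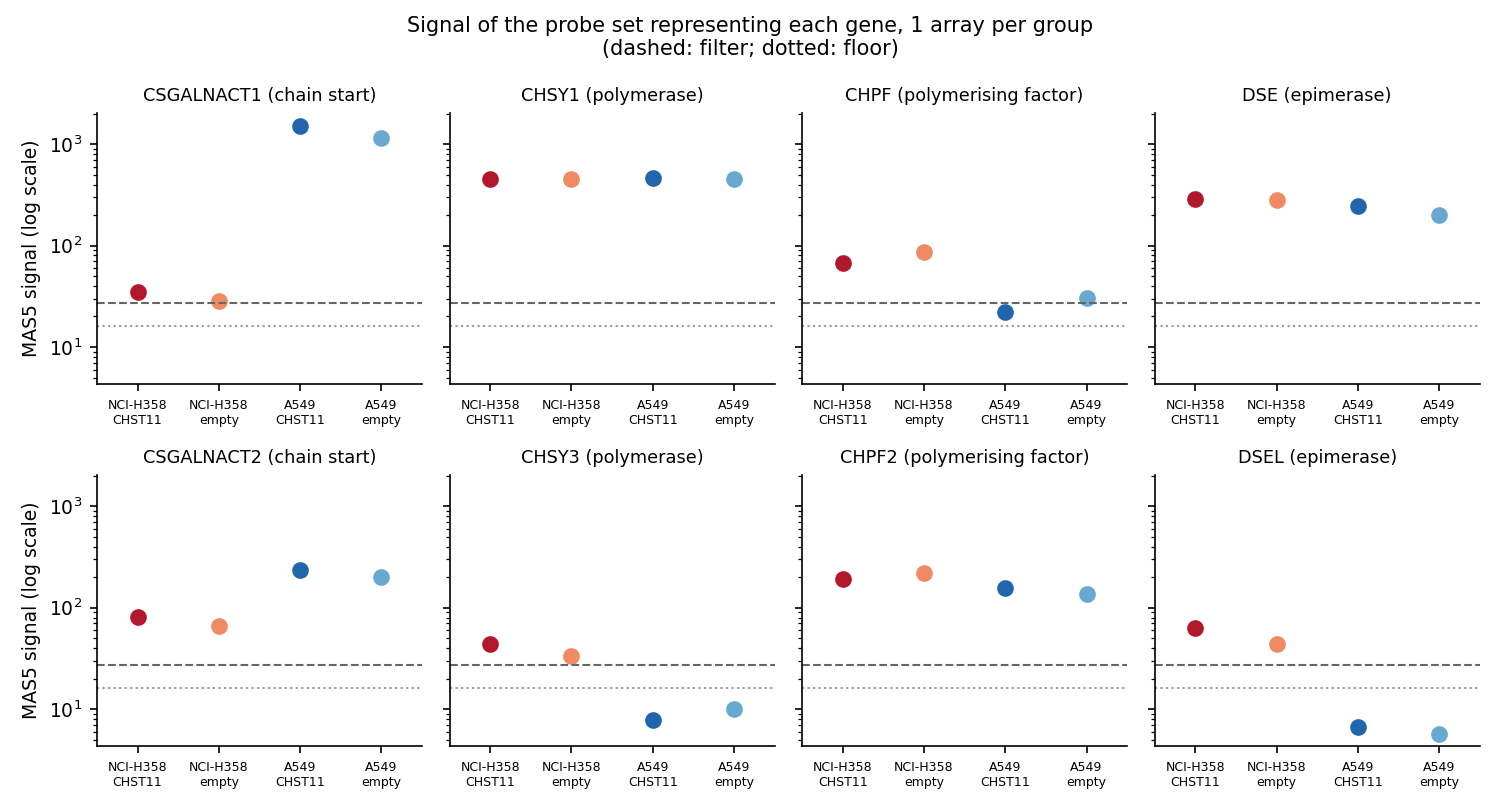
Signal on the deposited scale (log axis) of the probe set representing each of the 8 genes, with 1 point per array, NCI-H358 in red and A549 in blue, and the CHST11 vector left of the empty vector in each line. CSGALNACT1 stands at 34.87 and 28.67 in NCI-H358 against 1525 and 1147 in A549, CHSY1 is level across the arrays, and CHSY3 and DSEL lie under the dotted floor of 16.14 in A549.

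Of the chain-lengthening enzymes, one was level between the lines and the other was above the filter in NCI-H358 alone. CHSY1, the bifunctional synthase that alternates both sugars, had signals of 452.2 with the CHST11 vector and 451 with the empty vector in NCI-H358, and of 459.1 and 449.8 in A549. The 4 arrays differed by less than probe sets of a gene usually did. The line difference was log2 -0.01 (95% interval -0.24 to 0.22, limma adjusted p = 0.9355), and the vector ratios were 0.00 in NCI-H358 and 0.03 in A549. CHSY3, its close relative, had signals of 44.13 and 33.34 in NCI-H358, and of 7.854 and 10.08 in A549. Both A549 signals were under the floor, so no vector ratio was read there, and in NCI-H358 the log2 ratio was 0.40. Against the filter, CHSY3 was at least 1.42-fold higher in NCI-H358. It passed the filter through NCI-H358 alone and its A549 values were set by the floor, so no test of the line difference is given for it.

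The polymerising factors CHPF and CHPF2, which work in complex with the synthases, were both higher in NCI-H358 than in A549. CHPF had signals of 67.55 with the CHST11 vector and 85.73 with the empty vector in NCI-H358, and of 22.3 and 30.2 in A549. It was lower with the CHST11 vector in both lines, by log2 ratios of -0.34 and -0.44, and was alone among the 8 genes in being below 0 in both by the probe set that represented it. The A549 CHST11 signal lay under the filter and above the floor, so the A549 ratio was read close to the dim end. Between the lines CHPF was 2.93-fold higher in NCI-H358 (log2 1.55, 95% interval 1.31 to 1.79, limma adjusted p = 0.0002658), or 2.67-fold with the A549 CHST11 array raised to the filter. CHPF has 1 probe set.

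CHPF2 had 2 probe sets over the filter on all 4 arrays. The brighter, 55093_at, had signals of 191.8 with the CHST11 vector and 218.5 with the empty vector in NCI-H358, and of 156.1 and 135.5 in A549. The dimmer, 221799_at, had 133.4 and 150.9 in NCI-H358 and 90.72 and 96.91 in A549. Their vector ratios agreed in NCI-H358 (log2 -0.19 and -0.18) but had opposite signs in A549 (0.20 and -0.10), so no A549 direction was settled for CHPF2. The line difference was 1.41-fold by the brighter probe set (log2 0.49, 95% interval 0.16 to 0.83, limma adjusted p = 0.02431) and 1.51-fold by the dimmer.

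The epimerases both had higher signals in NCI-H358 than in A549, DSE by a small margin and DSEL by a lower bound that depended on the probe set. DSE, the main glucuronyl epimerase, had signals of 288 with the CHST11 vector and 279 with the empty vector in NCI-H358, and of 245.7 and 200.9 in A549. Its vector ratios were log2 0.05 in NCI-H358 and 0.29 in A549. The line difference was 1.28-fold (log2 0.35, 95% interval 0.08 to 0.63, limma adjusted p = 0.03741). The other 3 DSE probe sets stayed between 3.465 and 8.005 on all arrays, below the floor. DSEL, the second epimerase, had signals of 62.52 and 44.33 in NCI-H358 and of 6.611 and 5.714 in A549 on 232235_at. The NCI-H358 arrays were over the filter and the A549 arrays under the floor. DSEL was at least 1.95-fold higher in NCI-H358, and as for CHSY3 no test is given, since it passed the filter through NCI-H358 alone. Its probe set 232825_s_at pointed the same way with a smaller gap (36.31 and 28.56 in NCI-H358, 20.15 and 20.57 in A549, at least 1.19-fold against the filter). With the CHST11 vector both DSEL probe sets were higher in NCI-H358, with log2 ratios of 0.50 and 0.35, and the third, 244852_at, was below the floor.

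The promoter windows of 4 genes are shown as examples of genes that stood apart between the lines: CSGALNACT2, lower in NCI-H358, and CHSY3, CHPF and DSEL, higher in NCI-H358. CSGALNACT1, which differed more than these, is not shown. The windows are the 250 bases upstream of a start site in RefSeq (GRCh38.p14), 5′ to 3′ on the gene's strand. 7 of the 8 genes were used from that table, and for CHPF the more upstream of 2 start sites is printed. Capitals mark, on either strand, the CRE bound by CREB family factors (TGACGTCA), the GC box bound by SP1 (GGGCGG), the CCAAT box (CCAAT), the E-box (CACGTG) and the antioxidant response element core (TGACNNNGC).
CSGALNACT2, chr10:43138195-43138444, strand +: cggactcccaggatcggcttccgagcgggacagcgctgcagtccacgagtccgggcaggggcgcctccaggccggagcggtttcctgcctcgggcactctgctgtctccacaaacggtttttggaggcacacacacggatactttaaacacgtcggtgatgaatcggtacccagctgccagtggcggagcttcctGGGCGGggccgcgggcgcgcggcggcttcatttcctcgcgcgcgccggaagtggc
CHSY3, chr5:129904215-129904464, strand +: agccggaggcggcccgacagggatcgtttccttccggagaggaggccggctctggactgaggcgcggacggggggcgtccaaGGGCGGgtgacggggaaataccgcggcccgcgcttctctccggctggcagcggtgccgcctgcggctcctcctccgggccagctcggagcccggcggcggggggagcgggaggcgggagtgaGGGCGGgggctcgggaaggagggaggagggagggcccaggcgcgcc
CHPF, chr2:219543810-219544059, strand -: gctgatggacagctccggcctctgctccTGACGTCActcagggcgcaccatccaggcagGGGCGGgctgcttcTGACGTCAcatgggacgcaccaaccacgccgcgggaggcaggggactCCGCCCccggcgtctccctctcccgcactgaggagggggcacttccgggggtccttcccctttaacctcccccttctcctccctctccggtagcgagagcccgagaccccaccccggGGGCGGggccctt
DSEL, chr18:67516721-67516970, strand -: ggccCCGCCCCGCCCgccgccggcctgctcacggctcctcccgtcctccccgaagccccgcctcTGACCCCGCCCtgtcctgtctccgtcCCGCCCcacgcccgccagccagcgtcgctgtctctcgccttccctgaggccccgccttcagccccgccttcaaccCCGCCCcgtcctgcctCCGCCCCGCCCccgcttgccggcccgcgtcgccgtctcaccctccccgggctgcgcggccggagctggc

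The CHPF window holds 2 CRE matches and 3 GC boxes. At least 1 CRE is in 1.65% of all 35116 windows and at least 2 are in 0.0541%. The other CHPF start site holds 0 CRE matches and 1 CCAAT box. The DSEL window is 80% G and C, against a median of 58%, and holds 7 GC boxes, a number reached in 1.12% of windows, one of which overlaps its antioxidant core match. That core is in 10.9% of windows. CHSY3 holds 2 GC boxes and CSGALNACT2 1. At least 1 is in 42.6% of windows, at least 2 in 24.3% and at least 3, as in the CHPF window, in 13.9%. A match of letters is a description of the window and not a binding site, and no array measured binding.

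Within a line, the 8 genes were counted by size, with no p-value, where the log2 ratio between vectors was at least 0.32 in size. In NCI-H358, 3 of 8 measured genes passed: CHSY3 and DSEL higher, and CHPF lower with the CHST11 vector. The share over all 11401 genes was 9.15%, or 6.23% higher and 2.92% lower. CHPF, at log2 -0.344, was just inside this size, and CSGALNACT2 and CSGALNACT1, at 0.286 and 0.282, just outside it. With median centring or cyclic loess normalization CHPF was outside too, at -0.308 and -0.315. In A549, 2 of 6 measured genes passed, CSGALNACT1 higher and CHPF lower, against 7.16% of 11452 genes (3.26% higher and 3.9% lower). At 1.5-fold, 0 of the 8 passed in NCI-H358 and 0 of 6 in A549, where 1.19% and 1.21% of all genes did. The median log2 ratio of the chain enzymes was 0.16 in NCI-H358 and 0.22 in A549, against 0.00 and 0.01 over all genes. In NCI-H358 6 of 8 were above 0, CHSY1 by only 0.004. In A549 5 of 6 were, with CHPF2 above 0 by its brighter probe set alone. The share of all genes above 0 was not taken.

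The error of these ratios was gauged by the spread between probe sets of the same gene, an SD of 0.173 on the log2 scale in NCI-H358 and 0.158 in A549. It says nothing of how far separate cultures of a group would differ. In the A549 pair, 33 of 34 genes with very long mRNAs were below 0 (median log2 ratio -0.60, with 26 past the counting size of 0.32), and all 7 measured mitochondrial genome genes were past it in the other direction (median 0.73). In the NCI-H358 pair the same lists had medians of 0.13 and -0.14. The part of this shift in the A549 ratios of CHPF and CSGALNACT1 was not tested.

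**Figure D2:**
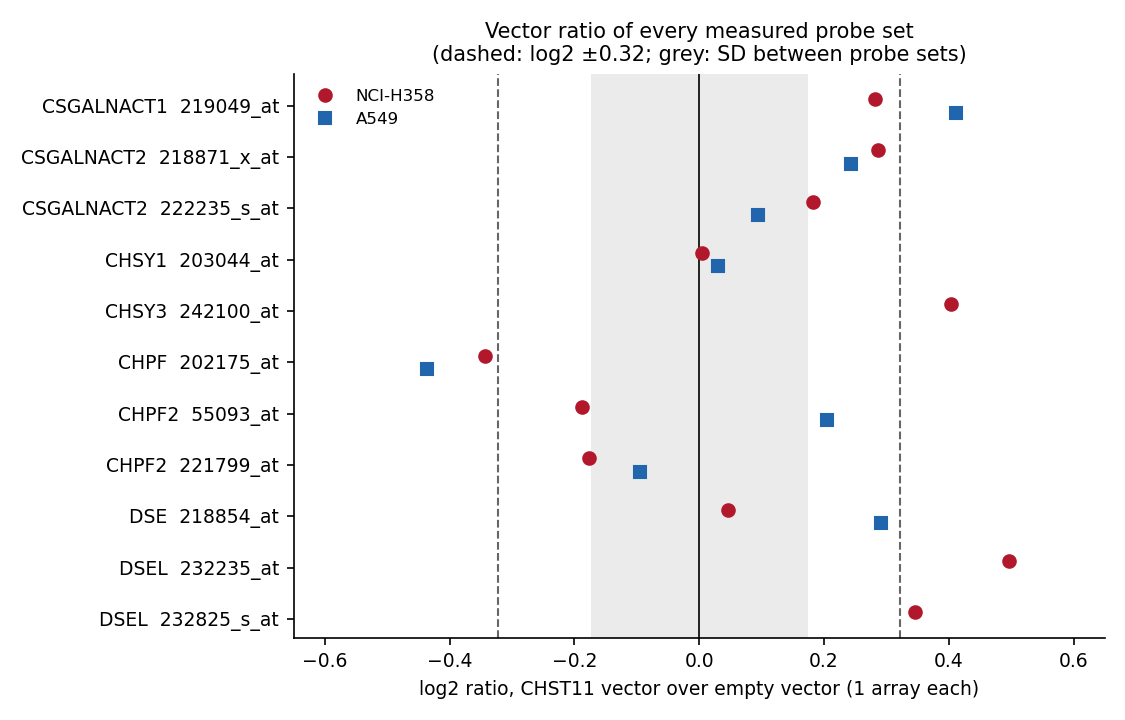
Log2 ratio of CHST11 vector over empty vector for each of the 11 probe sets measured in a line, with NCI-H358 as red circles and A549 as blue squares, 1 array per group and no error bar. The dashed lines mark the counting size of 0.32 and the grey band the NCI-H358 SD of 0.173 between probe sets of a gene. CHPF lies beyond the lower line in both cell lines, and 55093_at and 221799_at of CHPF2 lie on opposite sides of 0 in A549.

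The one test of the vector that the design allows takes the lines as replicates (limma, terms for cell line and vector, 1 residual degree of freedom). It called 0 of the 8 genes and 0 of 12288 (0%) at an adjusted p of 0.05. CHST11, the gene of the vector, was not called either (fitted log2 difference 1.84, 95% interval 1.26 to 2.42, limma unadjusted p = 0.0006126). The test thus missed a forced change of that size, and a gene it did not call cannot be read as unchanged. The smallest adjusted p over all genes was 1. CHSY3 and DSEL were in this fit with an A549 ratio of 0 set by the floor, so for them the lines are not replicates and no vector result is read. The 12288 likewise include genes measured in a single line. Without adjustment, 3 of the 8, each measured in both lines, and 373 of all genes (3.04%) had p under 0.05. These were CHPF (fitted log2 difference -0.39, 95% interval -0.63 to -0.15, limma unadjusted p = 0.009157), CSGALNACT1 (0.35, 0.10 to 0.59, limma unadjusted p = 0.01566) and CSGALNACT2 (0.27, 0.03 to 0.50, limma unadjusted p = 0.0331). By its second probe set, CSGALNACT2 had a fitted difference of 0.14 and a limma unadjusted p of 0.219. For CHSY1 the interval of the vector difference was -0.21 to 0.25. DSE had 0.17 (-0.11 to 0.45) and CHPF2 0.01 (-0.33 to 0.34), so a log2 difference of 0.32 in either direction was inside the CHPF2 interval.

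Between the lines, 6 of the 8 genes were measured in both and could be tested. The same fit called 5 of these 6 at an adjusted p of 0.05, with CHPF, CHPF2 and DSE higher in NCI-H358 and CSGALNACT1 and CSGALNACT2 lower. Of all 12288 genes fitted it called 64.6%, 34% higher and 30.6% lower, and of the 10565 measured in both lines 60.9%, 32.6% higher and 28.4% lower, so a call was the common outcome. CSGALNACT1 was larger in size than 99.9% of those genes, CSGALNACT2 than 93%, CHPF than 92.7%, CHPF2 than 55.7%, DSE than 43.6% and CHSY1 than 1.37%. In order of the log2 difference the 6 genes ran CSGALNACT1, CSGALNACT2, CHSY1, DSE, CHPF2 and CHPF. The intervals of CHSY1 and DSE overlapped, as did those of CHSY1 and CHPF2 and those of DSE and CHPF2. CHSY3 and DSEL have lower bounds only and no place in this order. The line difference varied between probe sets of a gene with an SD of 0.503 on the log2 scale, larger than the differences of CHPF2 and DSE.

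Since each line had 1 array per vector, the line comparison was also read within each vector. CSGALNACT1 had log2 differences of -5.45 on the CHST11 arrays and -5.32 on the empty vector arrays, CSGALNACT2 -1.56 and -1.60, and CHPF 1.60 and 1.51. CHPF2 had 0.30 and 0.69 and DSE 0.23 and 0.47, so their values were about as far apart as they were large. With any 1 array left out and cell line as the only term, 1 line held 1 array. The error then came from the vector difference within the other line. CSGALNACT1 and CSGALNACT2 stayed called in these fits, while CHPF, CHPF2 and DSE each lost the call in at least 1. Calls also became fewer over all genes, and a lost call does not show dependence on the array left out. Across these fits the line difference was log2 -5.592 to -5.181 for CSGALNACT1 and -1.718 to -1.433 for CSGALNACT2. It was 1.333 to 1.771 for CHPF, 0.391 to 0.595 for CHPF2 and 0.206 to 0.496 for DSE. With no filter on dim genes CHPF2 and DSE missed the threshold as well (limma adjusted p of 0.3053 and 0.2706).

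**Figure D3:**
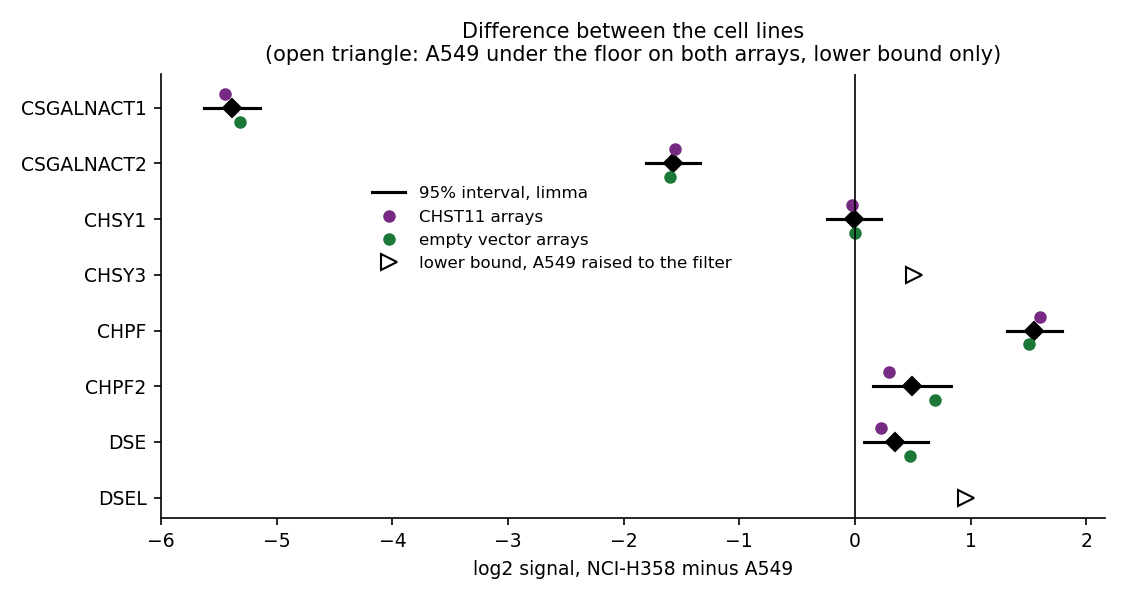
Log2 signal in NCI-H358 minus that in A549, with the limma estimate (diamond) and its 95% interval for the 6 genes measured in both lines, and the difference on the CHST11 arrays (purple) and on the empty vector arrays (green). Open triangles are the lower bounds of CHSY3 (1.42-fold) and DSEL (1.95-fold) on the same log2 axis. CSGALNACT1 at -5.39 and CSGALNACT2 at -1.58 lie left of 0, CHSY1 lies at 0 and the other genes lie right of it.

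The remaining chondroitin genes came from lists of the pathway steps, and the linker, sulfotransferase and donor genes counted here were measured in both lines. Their counts between lines stand against 60.9% of all such genes called, 32.6% higher and 28.4% lower. Of 6 measured linker genes, 0 reached a vector ratio of log2 0.32 in either line and 2 were called lower in NCI-H358 than in A549, PXYLP1 and B4GALT7. PXYLP1, which removes a phosphate from the linker, was the lowest (101.2 and 81.86 in NCI-H358, 187.9 and 172 in A549). Of 7 measured sulfotransferases, 2 were called higher in NCI-H358 (CHST11, the gene of the vector, and CHST15) and 3 lower (CHST3, CHST7 and CHST12). The CHST11 call rests on 219634_at and includes forced expression, with line differences of log2 1.62 on the CHST11 arrays and 0.77 on the empty vector arrays. With the empty vector, 226368_at had 78.14 in NCI-H358 and 66.39 in A549, and 226372_at 169.9 and 168.8. Beside CHST11, UST was past log2 0.32 between vectors, with 0.09 in NCI-H358 and 0.43 in A549. Its A549 signals, 41.89 with the CHST11 vector and 31.04 with the empty vector, lay near the filter of 27. Over all genes, 9.15% in NCI-H358 and 7.16% in A549 reached a vector ratio of that size. CHST3, which sulfates the 6 position of N-acetylgalactosamine, was 4.65-fold lower in NCI-H358 (47.1 and 49.45, against 221.2 and 227.6 in A549) and had vector ratios of log2 -0.07 and -0.04. Of 12 measured genes of sugar and sulfate donors, 5 were called higher in NCI-H358 and 3 lower. UGDH, which makes the glucuronic acid donor, was 4.23-fold lower in NCI-H358 (767.2 and 572.5, against 2808 and 2793 in A549), and was the single donor gene past log2 0.32 between vectors, with a ratio of 0.42 in NCI-H358 and 0.01 in A549. PAPSS2, which makes the sulfate donor, was 4.74-fold lower in NCI-H358, and UAP1, which makes activated N-acetylhexosamine, 2.25-fold higher. The other lower donor gene was SLC35B3, and the other higher ones were UXS1, GFPT1, SLC35D1 and PAPSS1. The limma adjusted p of the line difference was 0.008238 for CHST11. For the other line differences given with values here it was between 0.0001045 and 0.001196.

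Likeness was taken for 6 genes against 50 others of the pathway, all of them measured in both lines. It was the largest gap between mean-centred log2 signals over the 4 arrays. CHSY1 was closest to the linker kinase FAM20B (0.06), CHPF2 to the lysosomal glucuronidase GUSB (0.10) and DSE to the sulfate donor synthase PAPSS1 (0.13). CHPF was closest to APLP2 (0.31) and CSGALNACT2 to NRP1 (0.32). CSGALNACT1 had no near match among these: its closest gene, CHST3, lay 1.81 away. Genes measured in a single line were not compared, among them SRGN, which like CSGALNACT1 was far higher in A549.

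**Figure D4:**
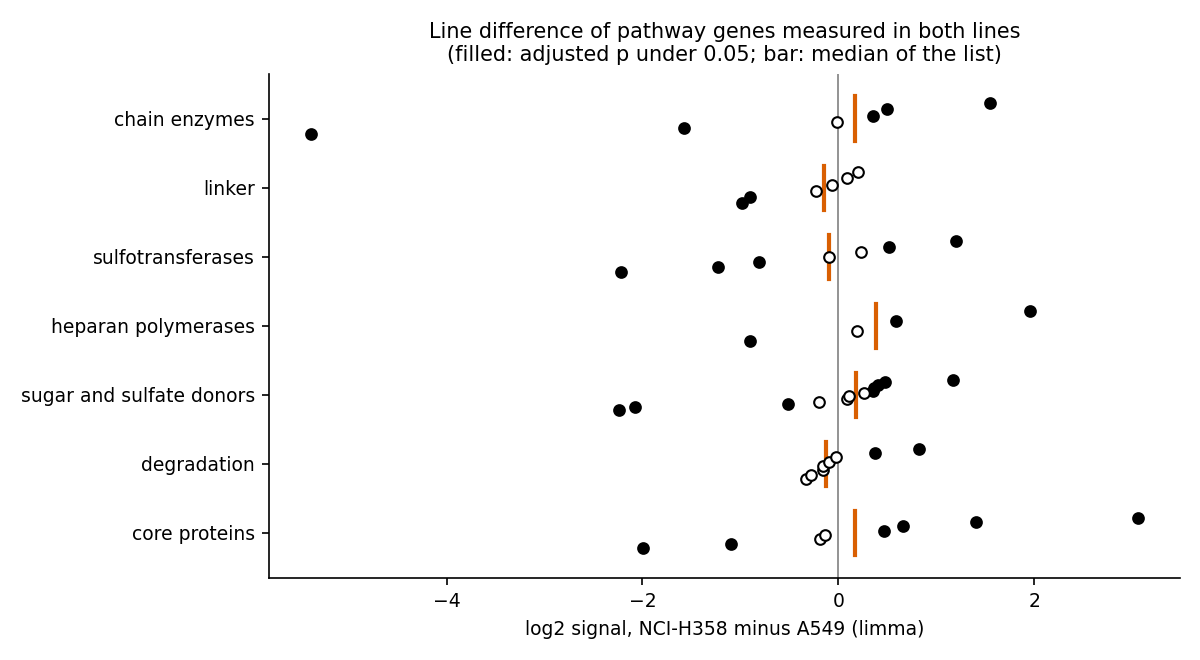
Log2 difference of NCI-H358 minus A549 for each gene measured in both lines, among the chain enzymes and 6 lists of the chondroitin and heparan pathways, with filled points for a limma adjusted p under 0.05 and a bar at each list's median. CSGALNACT1, at -5.39, is the leftmost point, and the rightmost is the core protein SDC4, at 3.06.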

How the data were processed

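Total RNA of 4 cultures was measured on 1-colour Affymetrix arrays with 54675 probe sets. The deposited intensities were made by the authors with MAS5, per the submitters' processing notes. The notes used here state neither its version nor its scaling target. Detection calls were not used, and whether a further normalization followed is unknown. The linear scale was read from the values (2.462 to 15500).

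Groups came from the sample titles. Gene names came from the platform annotation, which pairs 41091 probe sets with 1 symbol, 1801 with several and 11721 with none, with 62 control probe sets left out. By Entrez ID 99.9% of the single-symbol probe sets matched RefSeq, and 0 symbols changed. Values were floored at the 50th percentile and log2-transformed, and a gene was represented by its probe set of highest mean. Genes over the 60th percentile on at least 1 array (12288) entered a limma fit (version 3.58.1, R 4.3.3; prior degrees of freedom 3.53, Benjamini-Hochberg over all genes). Nothing says that the 2 arrays of a line are biological replicates, so no p-value measures the spread between cultures of a group. With terms for line and vector, the error is how far the vector ratio differs between the lines, drawn toward a value shared over genes. In fits with no vector term it is the spread between arrays of a line, which differ in vector. A fold against a line below the filter is given as at least that over the filter. The line term of the fit was tested on simulated data, with errors drawn from the fit's own estimates. It called 91.8% of 100 genes changed by log2 1 and 99.8% of 100 changed by log2 2, with a mean of 15.6 unchanged genes called. Far more genes were called in the real data, and the vector term was not simulated. Promoter sequences are from RefSeq.

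The chain enzymes, the pathway lists and the tests were chosen with earlier results of these data known. The text names the 8 chain enzymes and CHST11 whatever their values, and the line check genes. It names genes that are highest or lowest in a pathway list by vector ratio or line difference. For each chain enzyme measured in both lines it names the closest in pattern of the pathway genes measured in both. Other genes, named to complete a count, and the promoter motifs were chosen after values were seen. Alternatives were quantile, median and cyclic loess normalization, other floors and filters, other probe set choices, a variance trend, a fit per probe set, no vector term and each array left out. Plots were made with Python 3.11.15 and matplotlib 3.10.9.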

Additional observations from a re-analysis of the deposited data

Results flagged for a closer look

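CHPF2 had vector ratios of opposite sign in the 2 lines by its brighter probe set, log2 -0.188 in NCI-H358 and 0.204 in A549, each beyond the SD between probe sets of a gene in its line (0.173 and 0.158). With 1 array per group the difference between the lines was not tested. By its other probe set, 221799_at, both ratios were below 0 (-0.177 in NCI-H358 and -0.095 in A549).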

How the results depend on the processing

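No called value of a single gene changed sign under the alternatives run, but values near 0 did. The fitted vector difference was -0.01 for CHSY1 and -0.007 for CHPF2 with quantile normalization, and -0.064 for CHPF2 with the median of probe sets (0.017 for CHSY1 and 0.008 for CHPF2 in the report). The CHSY1 line difference was 0.006 without the A549 CHST11 array, and its NCI-H358 vector ratio -0.032 with quantile and -0.012 with cyclic loess normalization. With the filter at the 75th percentile, fewer dim genes were left to count: 0 chain enzymes in NCI-H358 and 1 in A549 had a vector ratio of at least log2 0.32. CHSY3, DSEL and CHPF, which made up the NCI-H358 count, were no longer measured there, nor was CHPF in A549. The share over all genes at that filter was not taken. With no filter 3 of the 6 chain enzymes measured in both lines and 1938 genes were called between lines. With the median of probe sets, 1 chain enzyme reached that size in A549, where CSGALNACT1 had log2 0.205, and the line difference of CSGALNACT1 was -2.69, since its other probe set is below the floor. With 1 row per probe set 13487 probe sets were called between lines. Without 1 array, 2 to 4 of the 6 chain enzymes and 5330 to 6465 genes were called. DSE missed the threshold under cyclic loess normalization (limma adjusted p = 0.0558). The count for the vector over both lines was 0 under each alternative that could be fitted; without 1 array that fit has no residual degree of freedom, so it gave no test. No paired analysis was possible across replicates because each group held 1 array; the vector fit pairs the vectors within a line through its cell line term. CHSY3 and DSEL in A549, and CSGALNACT1 in NCI-H358, lay near or under the dim end of the signal range. With the floor at the 25th percentile or no floor, the line difference of CHSY3 was log2 2.108 in place of 1.248 and that of DSEL, then represented by 232825_s_at, 0.661 in place of 1.705, so their sizes and their order depend on the floor.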

Other observations

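Of 8 core proteins of chondroitin or heparan sulfate chains measured in both lines, 4 were called higher in NCI-H358 (SDC4, APLP2, SDC1 and VCAN) and 2 lower (CD44 and NRP1), where 32.6% of all such genes were called higher and 28.4% lower. CD74 was over the filter in NCI-H358 alone, and SRGN, TGFBR3 and THBD in A549 alone. Serglycin (SRGN), a proteoglycan of secretory granules, was below the floor in NCI-H358 (3.131 and 3.484) and had 1336 on each A549 array, at least 49.5-fold lower in NCI-H358. Syndecan 4 (SDC4) ran the other way, 8.36-fold higher in NCI-H358 (1223 with the CHST11 vector and 1449 with the empty vector) than in A549 (153.4 and 165.2). The limma adjusted p for SDC4 was 5.622e-05.

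Of 4 EXT and EXTL family genes of heparan sulfate synthesis measured in both lines, 2 were called higher in NCI-H358, EXT1 and EXTL3, and 1 lower, EXT2. Of all genes measured in both lines, 32.6% were called higher and 28.4% lower. EXT1 was 3.88-fold higher in NCI-H358 (1041 and 1091, against 270.3 and 279.4 in A549; limma adjusted p = 0.0001392), and EXT2, its partner, 1.87-fold lower (295.9 and 322.7, against 574.8 and 578.1; limma adjusted p = 0.001306). Of 8 measured genes of chondroitin degradation, 2 were called higher in NCI-H358, HYAL2 and GUSB, and 0 lower; limma gave the hyaluronidase HYAL2 log2 0.83 there (adjusted p = 0.005588).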
